A study of Mus musculus with 15 samples.

Results

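Gsc and Gbx2 are homeobox genes of the lower jaw primordium, and they are described here across 15 arrays of mouse first branchial arch RNA. They were chosen by gene symbol and are 2 of 18193 genes named on the array, each measured by 1 probe set (1421412 for Gsc, NCBI gene 14836, and 1420337 for Gbx2, NCBI gene 14472). All embryos were of stage E10.5, where E counts embryonic days. The groups, of 3 arrays each, were the mandibular branch of Dlx5/6 mutants, the mandibular branch of wild type (WT), the maxillary branch of WT in a set called set 1 here (WT_MXA in the labels), the maxillary branch of a knockout labelled only KO, and the maxillary branch of WT in set 2 (WT_MXA2). The labels named no strain, did not say which gene the KO arrays lack, and did not say what set the WT maxillary sets apart. Their shared description was a plan that foresaw about 10 arches per experiment, and whether the arrays of a group held different embryos or pools was not labelled. The p-values therefore measure only the spread between these arrays, which may be technical.

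The first branchial arch gives rise to the jaws, its maxillary branch to the upper and its mandibular branch to the lower jaw. In the ventral arch, endothelin signalling from the epithelium switches on Dlx5 and Dlx6 in the neural crest mesenchyme, and these homeodomain factors act above a set of lower-jaw genes. Gsc encodes goosecoid, a homeodomain repressor first known from the organizer of the early embryo, and mice without it have defects of the lower jaw and the tympanic ring. Gbx2 encodes a homeodomain factor best known for setting the boundary between midbrain and hindbrain, and it is also used in the pharyngeal arches.

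Both genes were bright only in the WT mandibular branch. In the Dlx5/6 mutant mandibular branch no array exceeded 22.8 (Gsc) or 21.4 (Gbx2), whereas every WT mandibular array was at 170.1 or more for both genes. These mutant signals could not be set apart from background, and they overlapped those of WT maxillary set 1. The KO maxillary arrays, compared with set 2, gave no call for either gene.

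Gsc lies on chromosome 12 (GRCm38.p6, 104471209 to 104473236) and Gbx2 on chromosome 1 (89927962 to 89931176), both on the minus strand. Because the genes changed together in the mutant, the 250 bases before each RefSeq start are shown, with matches to the motifs searched in capitals. Gsc is chr12:104473237-104473486 and Gbx2 is chr1:89931177-89931426, both written on the minus strand from 5′ to 3′.
Gsc: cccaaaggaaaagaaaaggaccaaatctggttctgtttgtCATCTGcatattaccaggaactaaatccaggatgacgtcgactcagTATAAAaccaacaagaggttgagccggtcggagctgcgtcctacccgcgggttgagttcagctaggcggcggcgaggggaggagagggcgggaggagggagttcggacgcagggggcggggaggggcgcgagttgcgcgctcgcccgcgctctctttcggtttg
Gbx2: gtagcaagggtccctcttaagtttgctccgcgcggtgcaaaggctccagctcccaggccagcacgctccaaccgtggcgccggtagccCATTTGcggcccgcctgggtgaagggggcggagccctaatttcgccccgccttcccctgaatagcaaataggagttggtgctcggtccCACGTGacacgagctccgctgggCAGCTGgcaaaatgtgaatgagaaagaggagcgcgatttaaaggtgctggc
Both strands were searched for TAATTA (a core bound by Dlx homeodomains), TAATCC (a core bound by goosecoid-type homeodomains), CANNTG (the E-box of basic helix-loop-helix factors such as Hand2), its variant CATCTG, which lies within CANNTG, and TATAAA (the TATA box). TAATTA was in neither window, against 4.85% of 32807 RefSeq promoter windows of the same length. TAATCC was in neither window as well, against 6.25% of all windows. Gsc held 1 CANNTG, which is a CATCTG beginning 210 bases before the start, and Gbx2 held 3 CANNTG, where 66.2% of windows hold at least 1 CANNTG and 14.5% a CATCTG. The TATAAA in the Gsc window begins 164 bases before the start and 12.4% of windows hold one. The GC content was 59.2% for Gsc and 61.6% for Gbx2, against a median of 52.4%. A match is a run of letters and no measured binding, and a missing match says nothing of sites outside these windows.

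The dap control, a bacterial RNA added during labelling, separated the arrays. Its probe sets averaged 287 to 339.7 on 9 arrays (Dlx5/6 mutant mandibular, WT mandibular and set 1) and 2564 to 2821 on the 6 KO and set 2 arrays. The 4 main comparisons were each made within one of these array sets. Mesenchyme markers such as Prrx1 and Twist1 were present in every group, with sums of 7 marker signals of 7569 to 8012 in Dlx5/6 mutant mandibular, 6328 to 6928 in WT mandibular, 7764 to 8249 in set 1, 6988 to 7294 in KO maxillary and 7513 to 7884 in set 2 arrays, so the WT mandibular sums were the lowest. Of these 7 markers 2 were higher and 1 lower in the mutant than in the WT mandibular branch, where 3.16% of genes were called. In the WT mandibular branch 1 was higher and 4 lower than in set 1, where 3.56% of genes were called. Prrx1, Prrx2, Alx4 and Msx1 are also in the list of ventral arch factors below, and any call of them is counted there again. One of the 7, Alx4, was below the 40th percentile on every KO and every set 1 array. Among the genes lost, Dlx5 averaged 10.9 ± 2.97 in Dlx5/6 mutant arrays and 727 ± 40.5 in WT mandibular arrays (SD, n = 3 each). Dlx6 averaged 3.32 ± 1.52 in Dlx5/6 mutant arrays and 249.6 ± 51.3 in WT mandibular arrays (SD, n = 3 each). No source used here gives where these probes lie relative to the deleted part. Signals are deposited intensity values on a linear scale in arbitrary units. Changes are differences of log2(signal + 32) after quantile normalization with their SE, and adjusted p-values are from limma over 31643 probe sets.

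In the Dlx5/6 mutant mandibular branch the Gsc signal was 22.8, 4.31 and 22.3, against 194.1, 203 and 175 in the WT mandibular branch. The groups did not overlap, and the lowest WT array was 7.70 times the highest mutant array. Gsc fell by 2.19 ± 0.19 on the log2 scale (95% interval -2.58 to -1.80, adjusted p = 6.0e-08, limma). In bulk RNA, fewer cells that express a gene and less RNA per cell cannot be told apart.

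Gbx2 had signals of 21.4, 21.1 and 1.55 in the mutant arrays, against 188.9, 170.1 and 184.1 in the WT mandibular arrays. Here too no mutant array reached a WT array, and the lowest WT array was 7.94 times the highest mutant one. Gbx2 fell by 2.20 ± 0.17 (95% interval -2.55 to -1.84, adjusted p = 1.3e-08, limma). In this comparison 2.66% of probe sets were called, 1.25% as lower, and 9.76% lay lower without overlap.

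The lowest mutant array was replicate 2 for Gsc and replicate 3 for Gbx2, so no single mutant array carried both low values. On the mutant arrays Gsc lay between the 17.3 and 46.3 percentile of all probe sets of its array and Gbx2 between 6.93 and 45.2, whereas on WT mandibular arrays both lay between 77.2 and 79.5. At such low percentiles the remaining mutant signal could not be set apart from a background level, since no detection calls were used here. The size of the changes hung on the pseudocount. With 8 in place of 32 Gsc fell by 3.08 and Gbx2 fell by 3.19 on the log2 scale, and with the largest pseudocount tried Gsc fell by 1.12 and Gbx2 fell by 1.10, all called.

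**Figure D1:**
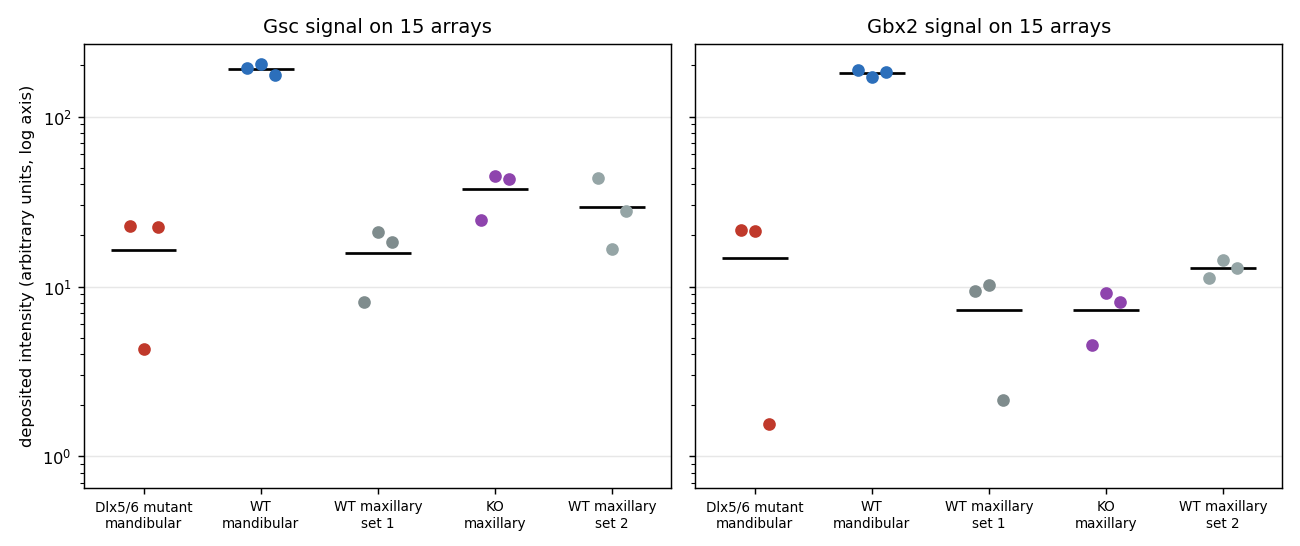
Deposited intensity of Gsc (left) and Gbx2 (right) on each array, on a log axis, with 3 points per group and a bar at the group mean. The WT mandibular arrays lie between 170.1 and 203 for both genes, and the highest of all other arrays is 44.7 for Gsc and 21.4 for Gbx2.

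The WT mandibular and WT maxillary branches showed the difference in normal embryos. Gsc had the WT mandibular signals given above, against 8.07, 20.8 and 18.3 in WT maxillary set 1. The lowest mandibular array was 8.40 times the highest maxillary array, and the log2 difference was 2.23 ± 0.19 (95% interval 1.84 to 2.62, adjusted p = 2.5e-08, limma). In this comparison 2.64% of probe sets were called, 1.13% as higher, and 9.06% lay higher without overlap.

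Gbx2 in WT maxillary set 1 had signals of 9.40, 10.2 and 2.14, all below the 40th percentile of their arrays. The lowest WT mandibular array was 16.7 times the highest of these, and the log2 difference was 2.44 ± 0.17 (95% interval 2.08 to 2.80, adjusted p = 1.3e-09, limma). Across the array sets, the WT mandibular branch was above set 2 by 1.87 for Gsc and 2.24 for Gbx2.

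The mutant mandibular branch was then set directly against WT maxillary set 1, which asks how close it came to the upper-jaw level. The signals above overlapped for both genes. Gsc differed by 0.04 ± 0.19 (95% interval -0.35 to 0.43, adjusted p = 0.98) and Gbx2 by 0.25 ± 0.17 (95% interval -0.11 to 0.60, adjusted p = 0.769, both limma). The intervals leave room for differences of up to 0.43 and 0.60 in log2(signal + 32), so the missed threshold does not show equal levels. Signals below 32, as all of these were, are compressed on that scale. As deposited, the mean mutant signal was 104.4% of that in set 1 for Gsc and 202.7% for Gbx2. Of all probe sets 0.594% were called in this comparison. Both mandibular comparisons share the WT mandibular arrays, so their values for Gsc and Gbx2 are not separate evidence.

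In the KO maxillary branch Gsc had signals of 24.5, 44.7 and 42.9, against 43.7, 16.6 and 27.9 in WT maxillary set 2, and the groups overlapped. The log2 difference was 0.14 ± 0.19 (95% interval -0.26 to 0.53, adjusted p = 0.878, limma). Gbx2 had signals of 4.52, 9.12 and 8.09 in the KO arrays, against 11.3, 14.3 and 12.8 in set 2. The KO arrays lay lower without overlap, as 7.55% of probe sets did, but all 6 values lay below the 40th percentile of their arrays and the difference of -0.21 ± 0.17 was not called (95% interval -0.57 to 0.15, adjusted p = 0.755, limma). Of all probe sets 0.913% were called. Dlx5 fell by 1.25 in the KO arrays (adjusted p = 1.4e-06), and for Dlx6 the difference was -0.43 (adjusted p = 0.394, both limma).

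The mutant effects were compared in the same model. The Dlx5/6 effect minus the KO effect was -2.32 ± 0.27 for Gsc (adjusted p = 9.6e-06) and -1.99 ± 0.24 for Gbx2 (adjusted p = 2.3e-05, both limma), where 1.09% of probe sets were called, 0.566% as lower. Both genes were already dim in set 2, so a fall of the mandibular size could not have been measured there.

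**Figure D2:**
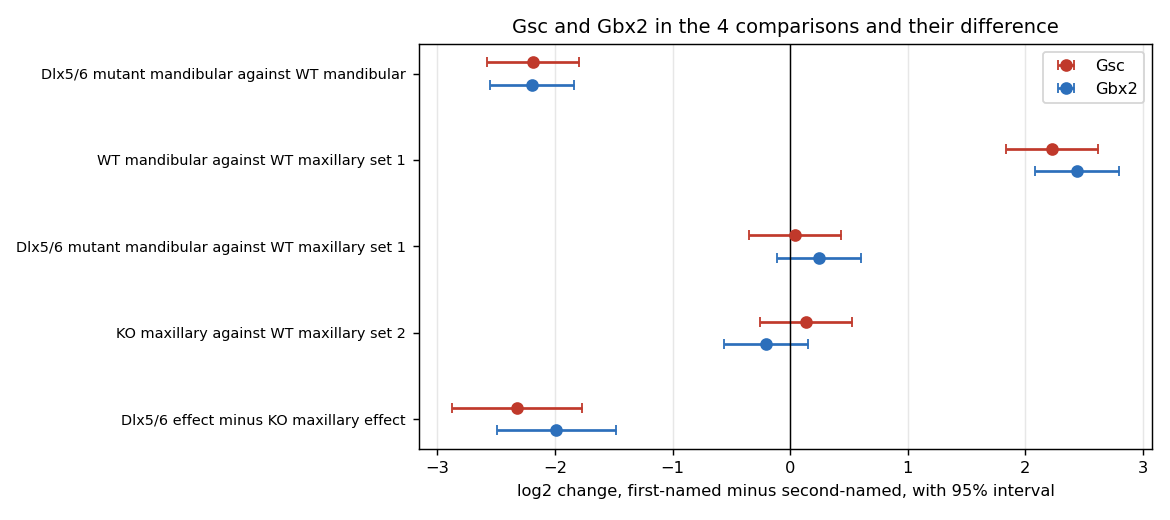
Log2 change of Gsc (red) and Gbx2 (blue) in the 4 comparisons and in the difference of the mutant effects, as points with 95% intervals from limma, positive where the first-named group is higher. The intervals of Gsc and Gbx2 overlap in every line, and those of the mutant mandibular against WT maxillary and the KO comparison include 0.

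The order of the mean levels differed between the genes below the WT mandibular branch. Mean signals of Gsc were 16.4 ± 10.51 in the Dlx5/6 mutant mandibular, 191 ± 14.4 in the WT mandibular, 15.7 ± 6.77 in the set 1, 37.4 ± 11.2 in the KO maxillary and 29.4 ± 13.6 in the set 2 arrays (SD, n = 3 each). Those of Gbx2 in the same groups were 14.7 ± 11.4, 181 ± 9.78, 7.25 ± 4.44, 7.25 ± 2.41 and 12.8 ± 1.52. On the normalized log2 scale Gsc ran from WT mandibular through KO maxillary, set 2 and mutant mandibular to set 1, and Gbx2 from WT mandibular through mutant mandibular, set 2 and set 1 to KO maxillary. In both orders the WT mandibular branch stood above its next neighbour, by 1.73 for Gsc over the KO arrays (adjusted p = 7.6e-07, across the array sets, where 13.2% of probe sets were called) and by the 2.20 given above for Gbx2. No later neighbours were told apart, with adjusted p from 0.323 to 0.98 for Gsc and from 0.562 to 0.99 for Gbx2 (limma). The place of Gsc in set 2 and KO arrays above set 1 cannot be told apart from the array set.

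The changes of Gsc and Gbx2 are also given side by side, as a description. The Gsc change minus the Gbx2 change was 0.01 in the Dlx5/6 mutant mandibular branch against WT mandibular, -0.21 in the WT mandibular branch against set 1, -0.20 in the mutant mandibular branch against set 1, and 0.34 in the KO arrays against set 2. An exact permutation test of 3 against 3 arrays cannot go below p = 0.1, so whether the genes changed by unequal amounts was not settled. Between arrays, the Gsc minus Gbx2 level had an SD of 0.63 in the mutant mandibular group and 0.14 in the WT mandibular group.

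Among 25 transcription factor genes of the ventral arch, 22 were kept for testing, 20 of them other than Gsc and Gbx2. Of those 20, 11 fell and 3 rose in the Dlx5/6 mutant mandibular branch, with a median of -0.42 against -0.01 for all 13934 genes, of which 3.16% were called, 1.58% lower and 1.58% higher. Dlx5 and Dlx6, the genes lost, are among those that fell. The list was chosen with earlier results of these data known, so its counts are a description. Hand2, which encodes an E-box-binding factor of the ventral arch, had 199, 198 and 186 in mutant arrays, against 1685, 1702 and 1606 in WT mandibular arrays. Hand2 fell by 2.90 on the log2 scale. The bicoid-type homeobox gene Pitx1 (-1.85), the transcription cofactor gene Cited1 (-1.47) and Dlx3 (-1.37) fell as well. Tbx2 (0.69), Prrx2 (0.50) and Tbx3 (0.42) rose. In the WT mandibular branch against set 1, 9 of the 20 were higher and 4 lower, where 3.56% of genes were called, 1.56% higher and 2% lower.

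Some of these factors stayed above the maxillary level in the mutant, where Gsc and Gbx2 were not called. Against set 1 the mutant mandibular branch was higher for Hand2 (2.34), Foxf1 (1.07), Cited1 (0.96) and the forkhead gene Foxd1 (0.84), and lower for Dlx5, Dlx6 and Prrx2, where 0.782% of genes were called, 0.258% higher and 0.524% lower. For Hand2 and Foxf1 another probe set was not called (0.20 and 0.84). Pitx1 (0.25, adjusted p = 0.662) and Dlx3 (0.04, adjusted p = 0.978, both limma) were not called, like Gsc and Gbx2. In the KO maxillary branch 1 of the 20 was higher, Foxd1 (1.46), and 4 were lower, Barx1 (-2.61), Dlx5 (-1.25), Msx2 (-0.36) and Prrx1 (-0.28), though no other probe set of Msx2 or Prrx1 was called, where 1.26% of genes were called, 0.639% higher and 0.617% lower.

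Genes of the maxillary and proximal arch, also listed with earlier results of these data known, were set beside Gsc and Gbx2. Of 12 such genes 7 rose and 1 fell in the Dlx5/6 mutant mandibular branch, with a median of 0.66, led by the POU factor gene Pou3f3 (2.16) and the forkhead gene Foxl2 (1.61), while Shox2 (-0.76) fell, where 3.16% of genes were called. Another probe set was not called for Pou3f3 (0.59) and Shox2 (-0.36). In the WT mandibular branch 0 of the 12 were higher and 8 lower than in set 1, with a median of -0.79, where 3.56% of genes were called. In the KO arrays 0 were higher and 7 lower, led by Dlx2 (-3.70) and Dlx1 (-1.62), where 1.26% of genes were called. Gsc and Gbx2 were not called there. Whether Dlx1 or Dlx2 is itself a gene lost in the KO arrays is not labelled, and both are in the count. For Pou3f3 (-0.41), Sim2 (-0.34) and Shox2 (-0.39) another probe set was not called in the KO arrays.

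**Figure D3:**
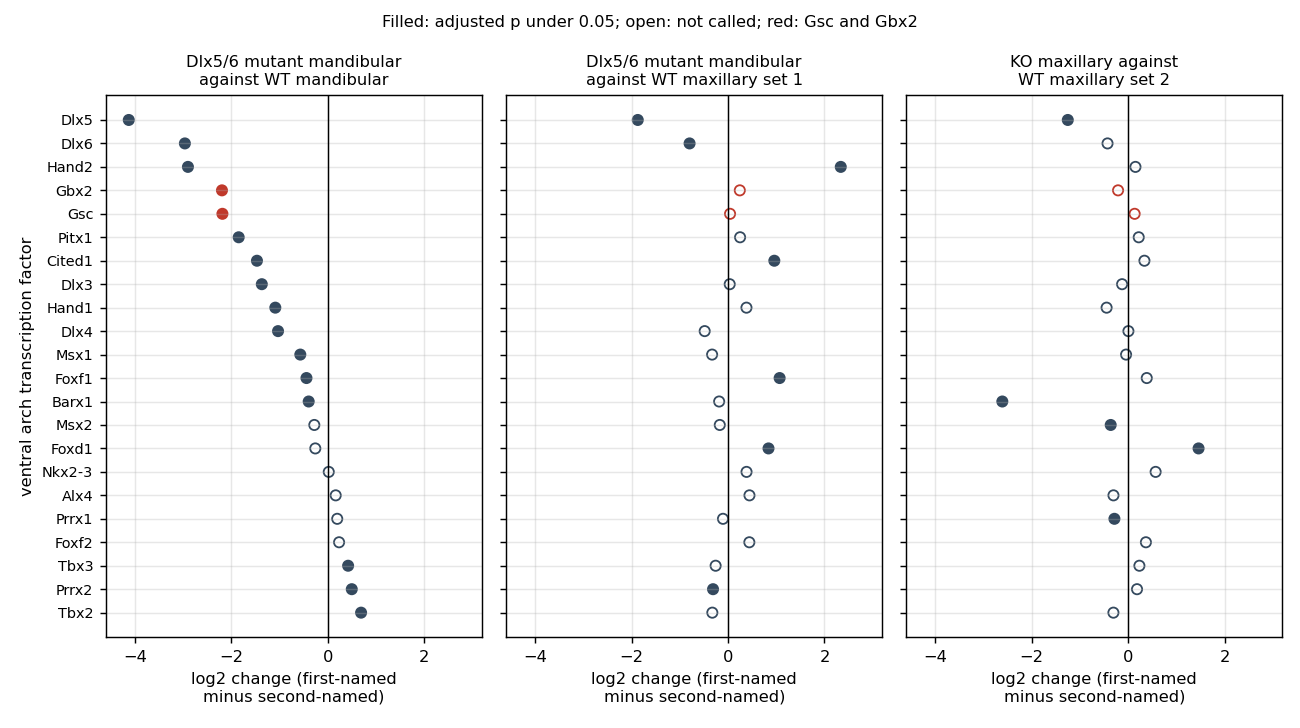
Log2 changes of 22 ventral arch transcription factor genes in 3 comparisons, positive where the first-named group is higher, filled where the adjusted p from limma is under 0.05, with Gsc and Gbx2 in red. Gsc and Gbx2 are filled at -2.19 and -2.20 in the left panel and open near 0 in the other panels, while Hand2 stays filled at 2.34 in the middle panel.

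Genes of the endothelin pathway and genes placed around Gsc in the early embryo were examined next. Of 13 measured genes of the endothelin pathway, which in the arch acts above Dlx5 and Dlx6, 0 were called in the mutant by limma. Among them 2 had an unadjusted p under 0.05, and the median was 0.11. The endothelin receptor gene Ednra, listed as well, had no probe set named by its symbol alone and is not among the 13. The signal of Edn1 itself was low, at 23.7, 28.3 and 10.3 in mutant arrays against 22.9, 8.504 and 1.43 in WT mandibular arrays. Of 18 kept activin, Nodal and organizer genes, among which Gsc is placed in the early embryo, 1 fell in the mutant, where 3.16% of all genes were called and 1.58% were lower. It was the WNT inhibitor Dkk1 (-0.58), which was also higher in the WT mandibular branch than in set 1 (1.21). Other probe sets of the activin antagonist gene Fst (0.85) and of Smad4 (0.54) were called higher in the mutant, while the brighter ones that stood for these genes were not called (0.23 for Fst and -0.185 for Smad4).

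FGF signals induce Gbx2 at the midbrain-hindbrain boundary, and Fgf8 is made by the arch epithelium. Fgf8 had signals of 112, 108 and 104 in mutant arrays, against 109, 98.1 and 85.8 in WT mandibular arrays, and its change of 0.14 was not called (adjusted p = 0.675, limma). Of 19 kept FGF pathway genes 2 rose and 0 fell in the mutant, the feedback inhibitors Dusp6 (0.50) and Spry2 (0.39), where 3.16% of all genes were called and 1.58% were higher. Another probe set of Spry2 was not called (0.01, adjusted p = 0.989, limma). Of 14 genes around Tbx1 and the Slit-Robo guidance system, with which Gbx2 acts in the pharyngeal arches, 2 rose, which are the Tbx2 and Tbx3 already counted above, and 0 fell, against the same 3.16%. Of 14 listed genes of the midbrain-hindbrain boundary, where Gbx2 is best known, 7 were kept, and En1, En2, Pax5 and Wnt1 were not. Of these 7, 2 rose, Irx3 (0.87) and Meis2 (0.34), and 0 fell, also against 3.16%. Irx3 is already counted above among the maxillary and proximal genes, and was lower in the WT mandibular branch than in set 1 (-1.51). The other probe sets of Meis2 were not called.

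Markers of other cells were set beside these values. Of 6 midbrain and hindbrain markers on the array 0 passed the filter on low values, and their summed signal was 47.9 to 61.6 in mutant and 34.0 to 48.3 in WT mandibular arrays. Markers of branchiomeric mesoderm (6) summed to 439 to 516 in mutant and 660.2 to 677 in WT mandibular arrays, with 0 higher and 1 lower. Macrophage markers (8) summed to 518 to 599 in mutant and 349 to 368 in WT mandibular arrays, with 1 higher and 0 lower, where 3.16% of all genes were called. Between the WT branches, 11 of 11 sensory neuron and glia markers were lower in the mandibular branch, with sums of 539 to 613 against 2867 to 3030 in set 1, and 2 of 6 pharyngeal endoderm markers were higher, with sums of 540.3 to 647 against 293 to 337 in set 1. There 2 of 8 macrophage markers were lower, and of 6 mesoderm markers 2 were higher and 1 lower, where 3.56% of all genes were called. The lower mesoderm marker was Isl1, which is also among the 11 neuron and glia markers. Isl1 was the largest part of the mesoderm sums, with means of 275 in mutant mandibular, 344.9 in WT mandibular and 470.4 in set 1 arrays. Against set 1 the mutant mandibular branch had 10 of 11 neuron and glia markers lower, with sums of 601 to 656. Of 6 endoderm markers 1 was higher there, and 1 of 6 mesoderm and 1 of 7 mesenchyme markers were lower. In that comparison 0.782% of all genes were called. In KO arrays 3 of 11 neuron and glia markers were lower (sums of 1037 to 1081, against 1296 to 1360 in set 2), 2 of 8 macrophage markers higher (763 to 785, against 480 to 547 in set 2) and 1 of 6 endothelial markers higher (906 to 1056, against 686 to 757 in set 2), where 1.26% of all genes were called. Of 9 epithelial markers 0 were called by limma in the mutant or between the WT branches, and 1 (mutant) and 4 (WT branches) had an unadjusted p under 0.05. The part of these cells in the Gsc and Gbx2 values was not tested.

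Relatives of both genes were read for comparison. Gsc2, the closest relative of Gsc, lay between 18.2 and 31.2 on all 15 arrays, and Gbx1, the closest relative of Gbx2, between 1.28 and 32.8 and did not pass the filter. Gsc shares with the Otx, Pitx and some other homeodomains, Six2 among them, a lysine at the position of the recognition helix where Bicoid has one. Of 10 other kept genes of that class 1 fell in the mutant, Pitx1, and 1 rose, Six2 (0.91), where 3.16% of all genes were called and 1.58% in each direction. Six2 had 251, 275 and 324 in mutant arrays, against 143, 152 and 117 in WT mandibular arrays. Of 7 kept Groucho corepressor genes, whose products goosecoid recruits, 0 were called in the mutant by limma and 2 had an unadjusted p under 0.05, with a median of -0.13.

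The 3 nearest kept genes on each side of Gsc and of Gbx2 were checked as well. In the mutant mandibular branch 1 of 12 was called, where 3.16% of genes were. It was Ackr3, a chemokine receptor gene 272.8 kb from Gbx2, which rose by 0.49 (adjusted p = 0.0064, limma) and was lower in the WT mandibular branch than in set 1 (-0.79). Its probe set is of the type that can match several transcripts. The nearer neighbours of Gbx2, Agap1 (-0.0011, adjusted p = 0.998) at 32.7 kb and Asb18 (0.50, adjusted p = 0.257) at 21.4 kb, were not called. For Gsc the nearest was Dicer1 at 214.5 kb (-0.25, adjusted p = 0.0581, limma).

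Genes with a profile most like each gene were ranked by Pearson's r of normalized log2 levels, as a description. Over 15 arrays the genes most like Gsc were Zadh2 (r = 0.96), Dlx3 (0.95) and Itm2a (0.94), with Gbx2 at number 9 (0.91). Those most like Gbx2 were Rtl3 (r = 0.98), Gpr50 (0.96) and Prnp (0.96), with Gsc at number 28. Over the 9 arrays of 1 array set they were Pitx1 (0.99), Itm2a (0.99) and Gpr50 (0.98) for Gsc, and Amot (0.98), Tshz2 (0.98) and Myf5 (0.98) for Gbx2. Of the 10 genes most like Gsc 3 were the same over 15 and 9 arrays, and of those most like Gbx2 5 were. Dlx3 and Rtl3 were in all 4 lists of 10. All arrays of a group share its tissue and genotype, and r mostly reflects the 3 WT mandibular arrays standing above the rest. Rtl3, for example, averaged 2.49 in mutant mandibular, 55.7 in WT mandibular, 2.55 in set 1, 2.86 in KO maxillary and 1.63 in set 2 arrays.

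**Figure D4:**
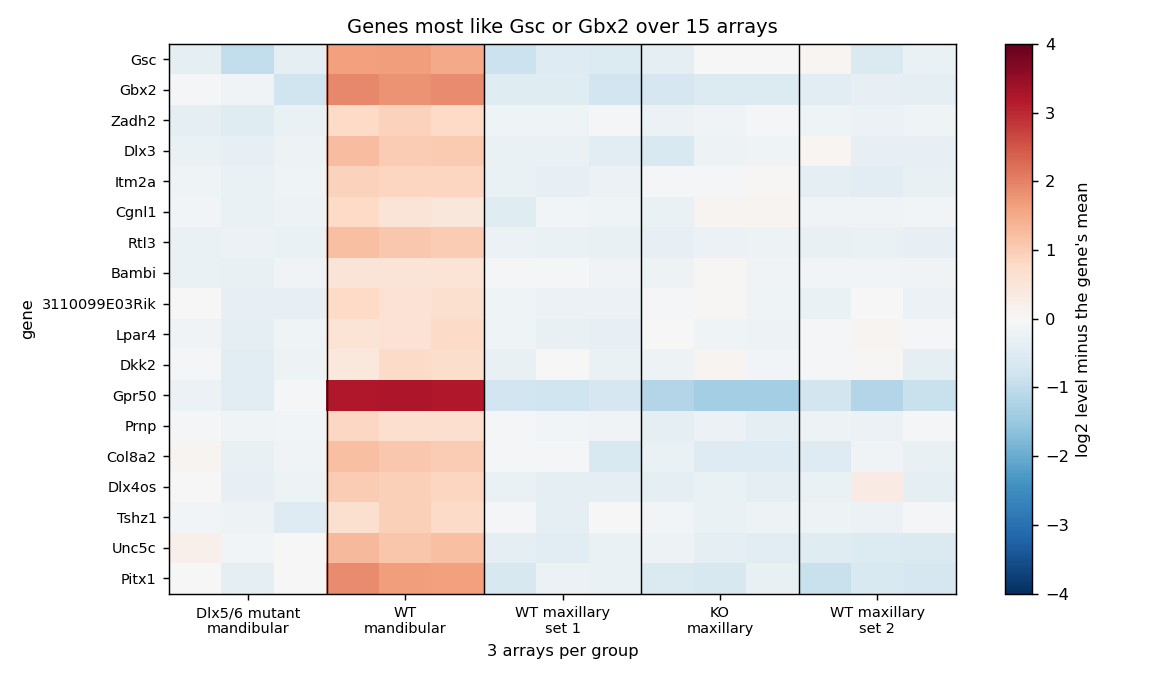
Normalized log2 level minus the gene's mean over all arrays (colour) for Gsc, Gbx2 and the genes most like either over 15 arrays (rows), with 3 arrays per group (columns). The 3 WT mandibular columns are above the mean in every row, and most other columns are below it.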

How the data were processed

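RNA of 15 mouse first arch samples was measured on an Affymetrix mouse array. The authors deposited 1 linear intensity value for each probe set and array, and the scanner software and summary method are not given in the sources used here. Their mean without the lowest and highest 2% was 150 on every array, so the arrays had been scaled before deposit. All sample columns were mapped by the labels.

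The values were converted to log2(value + 32), and because array medians differed by 0.159 on that scale they were quantile normalized. Of 45101 probe sets 31643 non-control ones were kept, those whose signal exceeded percentile 40 of its array on 3 or more arrays. Gsc was above it on 11 arrays and Gbx2 on 5, the 3 WT mandibular and 2 mutant ones, so Gbx2 passed through the group where it is high. Gene symbols came from the platform annotation (34958 probe sets with 1 symbol, 932 with several, 9211 not listed), and RefSeq changed 0 of them. A gene (13934 in all) was represented by its brightest kept probe set, specific ones first. A single model over all groups, with an intensity trend (limma 3.58.1, R 4.3.3), gave two-sided p-values adjusted by Benjamini and Hochberg, with calls under 0.05. The number of arrays limits the precision. The procedure was also run on simulated data with independent normal noise. That run counted recovered changes whatever their direction, and no result here rests on it. Same-numbered replicates of different groups had residual correlations from -0.096 to 0.085 (30 pairs), and replicate numbers were therefore not used for pairing.

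The genes, gene lists, comparisons and motifs were chosen with earlier results of these data known. Genes were named as members, as lost genes, by likeness, as neighbours, and as up to 4 called genes per list and comparison, and Edn1, Fgf8, Tbx2, Tbx3, Prrx2, Agap1, Asb18, Dicer1, Gsc2 and Gbx1 beside them for their role or position. Alternatives were other scalings, pseudocounts and filters, other fits, a replicate block, other controls and leaving out each array.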

Additional observations from a re-analysis of the deposited data

Results flagged for a closer look

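The difference between the Dlx5/6 effect in the mandibular branch and the KO effect in the maxillary branch, taken from 1 limma model, passed the threshold for both genes. It was -2.32 for Gsc and -1.99 for Gbx2 on the log2 scale. With WT maxillary set 1 as the control of the KO arrays it was -2.68 and -2.19. Leaving out 1 array gave -2.49 to -2.12 for Gsc and -2.12 to -1.76 for Gbx2. Both genes were already dim in WT maxillary set 2, so a fall of the mandibular size could not have been measured in the KO arrays. The KO effects against set 2 were 0.14 for Gsc and -0.21 for Gbx2, neither called. In size the difference therefore mostly repeats the mandibular fall.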

How the results depend on the processing

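The calls of Gsc and Gbx2 in the mutant against WT mandibular, the WT mandibular against WT maxillary and the difference of the mutant effects kept their direction and side of the threshold in every alternative run, the replicate block included, where Gsc fell by 2.19 (adjusted p = 2.8e-07, limma) and Gbx2 by 2.20 (adjusted p = 4.1e-08). No call of either gene appeared in the other comparisons, with a lowest adjusted p of 0.0993 (Gsc, KO arrays against set 1, 0.50). The sign of Gsc in the mutant mandibular branch against set 1 turned to -0.32 with set 2 as control, and to between -0.069 and 0.25 when 1 array was left out, negative without mutant replicate 1 (-0.069) or 3 (-0.053) or set 1 replicate 1 (-0.067). That of Gsc in the KO arrays turned to -0.029 without set 2 replicate 2 and reached 0.31 without another array. Called probe sets, 841, 835, 188 and 289 in the 4 comparisons and 346 for the difference of effects, dropped to 452 (mutant against WT mandibular), 125 (mutant against set 1), 172 (KO) and 219 (difference) without the intensity trend. With the control from the other array set they were 3318 (WT mandibular), 3536 (mutant mandibular), 3310 (KO) and 2246 (difference). Leaving out 1 array gave 499 to 653 for mutant against WT mandibular (499 without mutant replicate 2, 520 without 3), 119 to 142 for mutant against set 1 (119 without mutant replicate 2) and 175 to 222 for KO (187 without KO replicate 2, 175 and 179 without set 2 replicates 1 and 3). The cause was not tested. Of the 10 genes most like Gsc and Gbx2 over 15 arrays, 3 and 5 were again among the 10 over 9 arrays. A block for the array set gives the same values by construction.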
